A study of Danio rerio with 13 samples.

Results

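The heat shock chaperone genes were examined in whole brains of 13 zebrafish (*Danio rerio*), males of the AB strain aged 3 months. The list held 10 gene names: *dnajb1a*, *dnajb1b*, *hsp90aa1.1*, *hsp90aa1.2*, *hsp90ab1*, *hspa8*, *hspb1*, *hspd1*, *hspe1* and *hsf1*. They matched 11 of the 32105 genes of the counts table, 10 of them by their exact name. The name *hspa8* is carried by 2 genes, ENSDARG00000037403 and ENSDARG00000068992, which are called here the variable and the abundant *hspa8* gene for reasons given below. No gene carried the name *hsp90aa1.2*. A gene named HSP90AA1 in the name table (ENSDARG00000024746) stands beside *hsp90aa1.1* in the counts table, was counted under the shared stem, and is called *hsp90aa1*. The list is labelled cytosolic, but *hspd1* and *hspe1* encode the mitochondrial chaperonin HSP60 and its partner HSP10, and *hsf1* encodes a transcription factor rather than a chaperone.

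There were 5 wild-type fish, 5 fish with 1 mutant copy of *tert* (*tert*+/-) and 3 with both copies mutant (*tert*-/-), and each brain gave 1 RNA library. *tert* encodes the catalytic subunit of telomerase, and the mutant line is used as a model of telomere-driven ageing. The mutant allele (*tert* hu3430) carries a premature stop codon throughout the body, so that its transcript need not be absent. Libraries are named by genotype and a number, which only names the fish within its genotype. Whole brains mix many cell types, so fewer cells of a type and less RNA per cell cannot be told apart.

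As background, chaperones bind unfolded or partly folded proteins. HSP70 proteins such as the products of *hspa8* take up clients delivered by J-domain proteins such as those of *dnajb1a* and *dnajb1b*, which also stimulate the ATPase of HSP70. HSP90 dimers then mature a narrower set of clients, among them kinases and steroid receptors, with the help of co-chaperones. The transcription factor HSF1 is held inactive by chaperones and, when unfolded proteins draw these away, binds heat shock elements and raises the transcription of HSP70, HSP90 and J-domain genes. Some family members (*hsp90ab1*, *hspa8*) are expressed at all times in most cells, whereas others (*hsp90aa1.1* in zebrafish muscle, *hsp70l*) are restricted or stress-induced.

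The libraries held between 22008289 and 32380953 counted reads and detected between 23786 and 24197 genes. *tert* was not lower in the mutants. It was measured at 2.55 ± 0.776 CPM (reads counted relative to the library total, scaled with TMM factors) in wild-type brains, against 5.70 ± 1.92 in *tert*+/- and 8.02 ± 3.53 in *tert*-/- (mean ± SD), so that its level does not check the allele. Neuron markers summed to between 6755 and 8351 CPM over all libraries, and those of glia and myelin to between 15122 and 27977. Markers of other tissues were also counted. Skeletal muscle genes (18 of 20 passed the filter) summed to between 71.52 and 165.9 CPM in wild-type brains, 83.95 and 533.7 in *tert*+/- and 104.4 and 252.8 in *tert*-/-. Photoreceptor genes (15 of 22 passed) summed to between 10.8 and 611, 8.53 and 291, and 7.11 and 9.52 CPM. Erythrocyte genes (5 of 7 passed) summed to between 147.5 and 354.2 CPM in wild-type brains, 136.6 and 429.4 in *tert*+/- and 138.1 and 771.2 in *tert*-/-. None of these markers was at 0 in all libraries, and their part in the results below was not tested.

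The level of each gene was first compared per kilobase of gene length, over the 13 libraries. The most abundant were *hsp90ab1*, the constitutive cytosolic HSP90, at 703 ± 33.5 CPM per kilobase, and the abundant *hspa8* gene, a constitutive HSP70, at 565 ± 34.2. *hsp90ab1* was the higher of the pair in 13 of 13 libraries, by between 1.01 and 1.33 times, although the ranges of the genes overlapped. *hsp90aa1*, a cytosolic HSP90 of the alpha type, followed at 77.9 ± 29.7 and the variable *hspa8* gene at 43.6 ± 19.0, and the first exceeded the second in 13 of 13 libraries. The variable *hspa8* gene, *hspe1* (39.2 ± 5.60) and *hspd1* (38.5 ± 2.76) could not be ordered, since the first exceeded the second in 7 of 13 libraries and the second the third in 8 of 13. Below them came *hspb1*, a small heat shock protein, at 7.96 ± 1.11. The order of *hsf1* (4.32 ± 0.548), *hsp90aa1.1* (4.05 ± 1.29) and *dnajb1a* (3.45 ± 0.903) was also not fixed, while *dnajb1b* (1.13 ± 0.431) was below *dnajb1a* in 13 of 13 libraries. The order of the genes did not change when library totals alone were used for scaling.

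**Figure D1:**
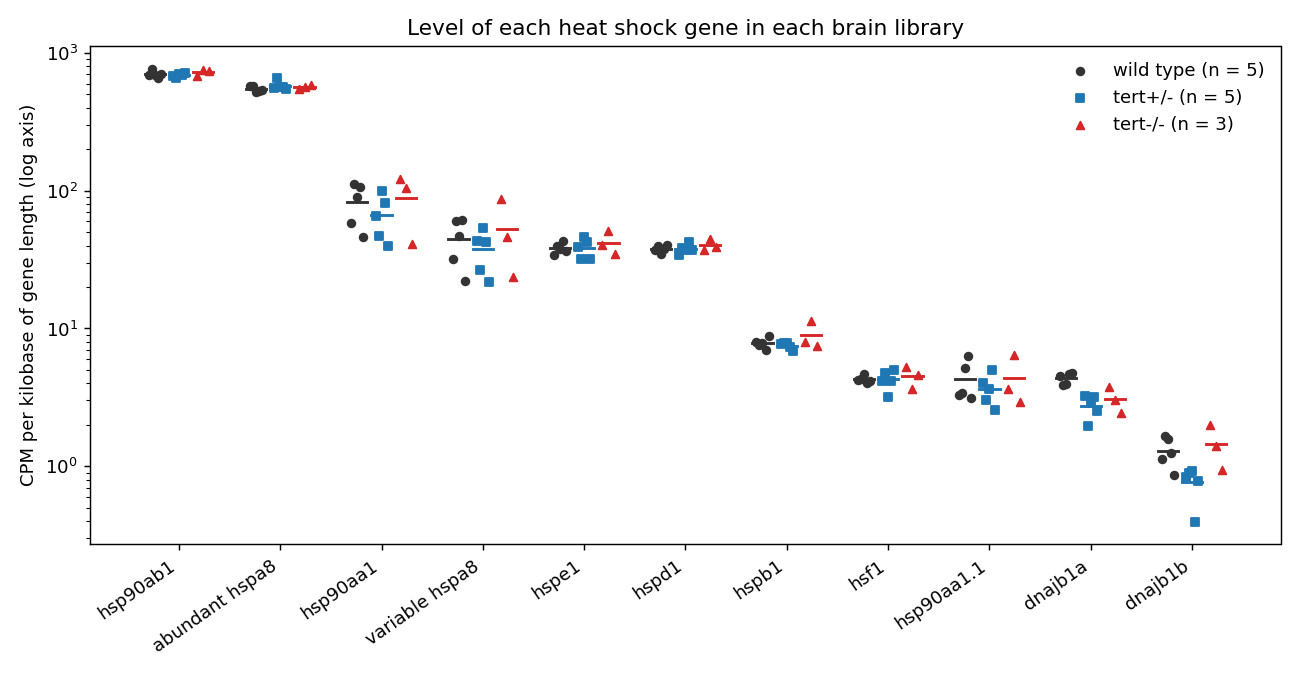
Level of each of the 11 heat shock genes in each library, in CPM per kilobase of gene length on a log axis, by genotype. Points are single fish and short lines are group means. *hsp90ab1* and the abundant *hspa8* gene lie highest, and *hsp90aa1* and the variable *hspa8* gene spread most within every genotype.

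The change by genotype was tested with edgeR across 20064 genes, and all 11 heat shock genes passed the count filter. Between *tert*-/- and wild type, 0 of the 11 were called at an adjusted p under 0.05, where edgeR called 0% of all tested genes and DESeq2 called none of the 11 and 0.0593% (16) of the 26989 genes to which it gave an adjusted p. Before adjustment, a p under 0.05 was found for 1 of the 11 (*dnajb1a*, lower), beside 2.14% (429) of all tested genes. The other 10 had higher fitted values in *tert*-/-, with a median log2 fold change over the 11 of 0.09, beside a median of 0.00 and 50.2% of genes higher over all tested genes. That count fell to 6 of 11 without *tert*-/- 1 or without *tert*-/- 2. Erythrocyte markers were also higher in *tert*-/- than in wild type for 5 of 5 tested genes (median log2 fold change of 0.72, 0 with an unadjusted p under 0.05). Their level was highest in *tert*-/- 1, at 1.6 log2 units above its mean over libraries, and lowest in *tert*-/- 3, at −1.09, and their part was not tested.

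Between *tert*+/- and wild type, 0 of the 11 were called by edgeR, which again called 0% of all tested genes, and by DESeq2, which called 0.12% (28) of its 23354 genes with an adjusted p. Before adjustment, 2 of the 11 had a p under 0.05, *dnajb1a* and *dnajb1b*, both lower, beside 7.74% (1553) of all tested genes. The median log2 fold change over the 11 was −0.06, beside 0.00 over all tested genes. In the fit, 1 of the 11 was higher in *tert*+/-, the abundant *hspa8* gene, but *hspd1*, *hspe1* and *hsf1* lay at 0.00. The count was 4 with RLE scaling factors. With library totals only, *hsf1* was at −0.08, and 33.7% of all tested genes were higher in *tert*+/-, beside 49.4% with TMM factors. The TMM factors of *tert*+/- libraries (0.9525 to 0.9857) all lay below those of wild type (0.9949 to 1.042), so that the scaling bears on this comparison.

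Between *tert*-/- and *tert*+/-, edgeR called 0 of the 11 and 0% of all tested genes, and DESeq2 called none of the 11 and 0.0723% (18) of its 24912 genes with an adjusted p. Before adjustment, a p under 0.05 was found for 1 of the 11 (*dnajb1b*, higher), beside 4.62% (927) of all tested genes. In all, 10 of the 11 were higher in *tert*-/-, with a median of 0.17, beside 0.00 and 49.4% of genes higher over all tested genes. The 3 comparisons share their libraries. A fit of the mutant allele number as a numeric term called 0 of the 11 and 0% of all tested genes.

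**Figure D2:**
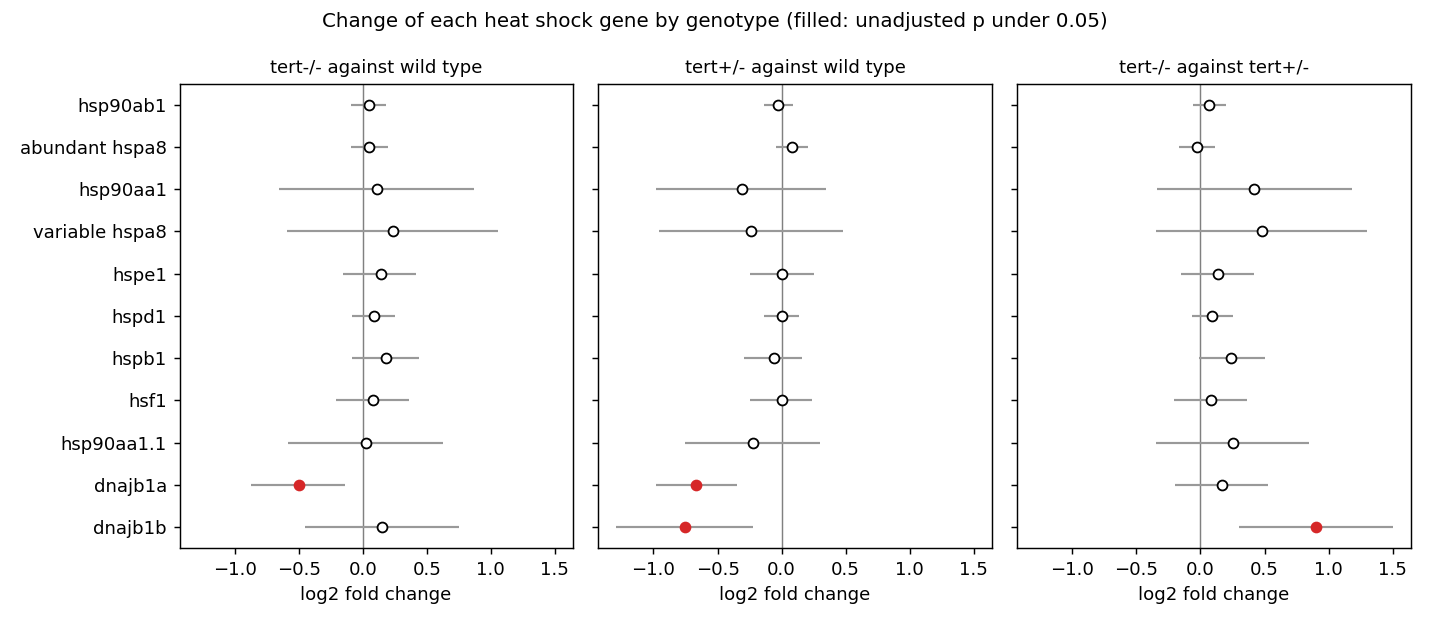
Log2 fold change of each heat shock gene in the 3 comparisons, with 95% intervals from the standard error of the edgeR fit. Filled points have an unadjusted p under 0.05 and none passed adjustment over 20064 genes. The intervals of *hsp90ab1* and the abundant *hspa8* gene are narrow around 0, and those of *hsp90aa1* and the variable *hspa8* gene are wide.

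The J-domain gene *dnajb1a* had its lowest values in mutant brains, although the difference did not pass adjustment over all genes. Wild-type libraries 1 to 5 held 7.42, 6.38, 6.48, 7.68 and 7.73 CPM. The *tert*+/- libraries 1 to 5 held 5.26, 3.22, 4.70, 5.16 and 4.09 CPM, and the *tert*-/- libraries 1 to 3 held 6.17, 4.95 and 3.96. Every mutant library was thus below every wild-type library, although the highest mutant and the lowest wild-type library lay close together. This pattern was found in 0.0598% (12) of all tested genes. The number with shuffled labels and the number in the opposite direction were not computed. The figure therefore does not show that the pattern is unusual. Against wild type separately, *dnajb1a* did not overlap in *tert*+/- (lower without overlap in 0.847% of tested genes and higher in 0.852%) or in *tert*-/- (1.11% and 1.06%).

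The group means of *dnajb1a* were 7.14 ± 0.655 CPM in wild-type brains, 4.49 ± 0.846 in *tert*+/- and 5.03 ± 1.11 in *tert*-/-, from counts of between 83 and 224 reads per library. The log2 fold change of *tert*+/- against wild type was −0.67 ± 0.16 (SE), with an edgeR unadjusted p of 0.00114 and an adjusted p of 0.602. It was place 33 among the 20064 genes by p. DESeq2 gave an adjusted p of 0.0619, the lowest over 21 alternatives, in which the adjusted p reached 0.905 and the log2 fold change lay between −0.79 and −0.57.

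In *tert*-/- against wild type, the log2 fold change of *dnajb1a* was −0.50 ± 0.19, with an edgeR unadjusted p of 0.0184 and an adjusted p of 1. It lay between −0.66 and −0.30 over 21 alternatives, and the unadjusted p passed 0.05 in 18 of them. Without *tert*-/- 1 it was the most negative, and the exceptions were the fits without *tert*-/- 2, without *tert*-/- 3 and with a subset of the libraries that is described below, the middle run of title numbers. The *tert*-/- and *tert*+/- libraries overlapped, with a log2 fold change of 0.17 ± 0.18 and an edgeR adjusted p of 0.978. The slope was −0.29 ± 0.11 log2 units per mutant allele (edgeR adjusted p of 1).

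Marker lists differed between the same groups. Photoreceptor genes were lower than in wild type for 15 of 15 tested genes in *tert*-/- (8 with an unadjusted p under 0.05, median log2 fold change of −2.97) and in *tert*+/- (1 with an unadjusted p under 0.05, median of −1.03), and edgeR called 0 of them. Their level was above its mean over libraries in wild type 1 and 5 and in *tert*+/- 3, by 1.83, 3.18 and 2.04 log2 units, and below it in the other libraries. Over the 13 libraries, *dnajb1a* and the photoreceptor level had an r of 0.41 and a rho of 0.49 (permutation p of 0.165 and 0.0902, adjusted p of 0.75 and 0.522 over 110 relations of heat shock genes with marker measures). That r was 0.14 without the 2 farthest libraries, 0.30 within genotypes and −0.16 within the middle run. *dnajb1a* and the level of glia and myelin genes had an r of −0.60 and a rho of −0.46 (permutation p of 0.0272 and 0.12, adjusted p of 0.427 and 0.581). There the r was −0.31 without the 2 farthest libraries, −0.63 within genotypes and −0.75 within the middle run. With the neuron level the r was −0.52 and the rho −0.53 (permutation p of 0.0663 and 0.0634, adjusted p of 0.486 and 0.458). This r was −0.22, −0.35 and −0.59 in the same subsets. *tert*+/- 2, a library of the middle run, had the lowest *dnajb1a* and the highest glia and neuron levels of the 13. The middle-run r of *dnajb1a* with these levels thus leans on it and was not computed without it. With the microglia level the r was −0.20, and −0.73 within genotypes. For the muscle, erythrocyte and immediate early levels the r was −0.17, 0.13 and 0.12. The part of these markers in the *dnajb1a* difference was not tested.

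The paralogue *dnajb1b* had another order of genotypes. Wild-type libraries 1 to 5 held 2.4, 3.51, 3.35, 2.64 and 1.83 CPM. The *tert*+/- libraries 1 to 5 held 1.77, 1.90, 1.97, 0.837 and 1.66 CPM, and the *tert*-/- libraries 1 to 3 held 4.18, 2.97 and 1.98. The *tert*+/- libraries were all below the *tert*-/- libraries, with 1.97 against 1.98 CPM at the border, while wild-type libraries overlapped both. Groups of *tert*-/- and *tert*+/- libraries failed to overlap in 1.23% of tested genes (*tert*-/- lower) and 1.17% (*tert*-/- higher).

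The counts behind *dnajb1b* were few, between 19 and 135 reads per library. Means were 2.75 ± 0.69 CPM in wild-type brains, 1.63 ± 0.457 in *tert*+/- and 3.04 ± 1.1 in *tert*-/-. The log2 fold change was −0.75 ± 0.27 in *tert*+/- against wild type (edgeR unadjusted p of 0.0166 and adjusted p of 0.602). It was 0.90 ± 0.31 in *tert*-/- against *tert*+/- (edgeR unadjusted p of 0.0115 and adjusted p of 0.975, and without *tert*-/- 1 a log2 fold change of 0.62 with an unadjusted p of 0.0871), and 0.15 ± 0.31 in *tert*-/- against wild type (edgeR adjusted p of 1).

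**Figure D3:**
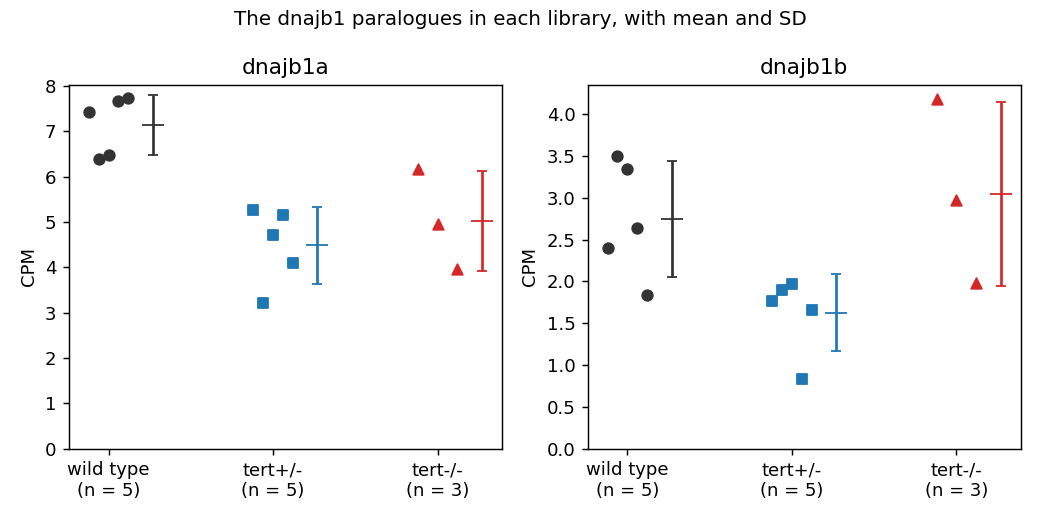
CPM of *dnajb1a* and *dnajb1b* in each library by genotype, with the mean and SD beside the points. For *dnajb1a* the wild-type points, from 6.38 to 7.73 CPM, lie above all mutant points. For *dnajb1b* the *tert*+/- points lie lowest, with 1 at 0.837 CPM.

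The constitutive genes varied least between libraries. *hsp90ab1* ranged from 2315 to 2725 CPM over the 13 libraries, with wild-type brains at a mean of 2482 ± 150, 2438 ± 69.4 in *tert*+/- and 2561 ± 123 in *tert*-/-. The SD of its log2 CPM was 0.0678, and 2.44% of 41 genes of like level had a smaller one. The 95% interval of its log2 fold change was −0.09 to 0.18 in *tert*-/- and −0.14 to 0.09 in *tert*+/- against wild type. The abundant *hspa8* gene ranged from 1338 to 1689 CPM, with means of 1408 ± 70.19, 1492 ± 113 and 1461 ± 45.6. Its intervals against wild type were −0.09 to 0.20 in *tert*-/- and −0.04 to 0.21 in *tert*+/-.

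The mitochondrial pair and *hsf1* overlapped between all genotypes. *hspd1* ranged from 98.9 to 128 CPM, with means of 109 ± 6.11, 109 ± 8.09 and 116 ± 10.9 in the order wild type, *tert*+/-, *tert*-/-. *hspe1* ranged from 57.7 to 92.4 CPM, with means of 69.3 ± 6.16, 69.3 ± 11.4 and 76.2 ± 15.0. The genes of *hspd1* and *hspe1* stand next to each other in the counts table, yet the correlation of their log2 CPM over the 13 libraries was 0.39. The regulator *hsf1* ranged from 12.9 to 21.1 CPM, with means of 17.2 ± 1.02, 17.2 ± 2.81 and 18.1 ± 3.21. It stands 66 entries from *tert* in the counts table, the nearest of the 11, and its edgeR log2 fold change against wild type was 0.08 ± 0.14 in *tert*-/- and −0.00 ± 0.13 in *tert*+/-.

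*hspb1*, a small heat shock protein that holds unfolded proteins in solution, was between 11.4 and 14.6 CPM in 12 libraries and 18.8 CPM in *tert*-/- 2. The same library held the highest *hspd1* and *hspe1*. The means of *hspb1* were 13.0 ± 1.06, 12.5 ± 0.744 and 14.8 ± 3.47 CPM. Without *tert*-/- 2, its log2 fold change of *tert*-/- against wild type went from 0.18 to −0.02.

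The widest variation lay within genotypes. *hsp90aa1* held 253.7, 491, 395, 465 and 204 CPM in wild-type libraries 1 to 5. It held 290, 206, 435, 356 and 173 CPM in *tert*+/- libraries 1 to 5, and 533, 459 and 179 in *tert*-/- libraries 1 to 3. Each genotype thus had high and low libraries, and the ranges of the 3 genotypes overlapped. The SD of its log2 CPM was 0.595, above that of 96.1% of 913 genes of like level. The group means of 362 ± 128, 292 ± 108 and 390 ± 187 CPM gave log2 fold changes of 0.11 ± 0.39 in *tert*-/- and −0.31 ± 0.34 in *tert*+/- against wild type (edgeR adjusted p of 1 and 0.832). These intervals, −0.65 to 0.87 and −0.98 to 0.35, leave room for changes in either direction.

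The variable *hspa8* gene did likewise. It held 91.9, 174, 135, 176 and 64.1 CPM in wild-type libraries 1 to 5. It held 125, 77, 156, 123 and 62.4 CPM in *tert*+/- libraries 1 to 5, and 250.9, 134 and 68.4 in *tert*-/- libraries 1 to 3. The SD of its log2 CPM was 0.633, the largest of the 11 and above that of 97.9% of 2676 genes of like level. The log2 fold change was 0.24 ± 0.42 in *tert*-/- and −0.24 ± 0.37 in *tert*+/- against wild type (edgeR adjusted p of 1 and 0.887). *hsp90aa1.1*, known in zebrafish for the folding of muscle myosin, ranged from 7.18 to 18.1 CPM, with the highest values in *tert*-/- 2 (18.1) and wild type 4 (17.8). Its means were 11.9 ± 3.97, 10.2 ± 2.66 and 12.2 ± 5.26 CPM.

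Both variable genes are paralogues of a steady one. As a share of the summed level per kilobase of *hsp90ab1*, *hsp90aa1* and *hsp90aa1.1*, *hsp90aa1* took 10.4 ± 3.28% in wild-type brains, 8.67 ± 2.87% in *tert*+/- and 10.8 ± 5.06% in *tert*-/-. The variable *hspa8* gene took 7.45 ± 2.75%, 6.10 ± 2.15% and 8.36 ± 4.93% of the level of both *hspa8* genes. How any reads shared between paralogues were counted is not given in the sources used here. The sequences of these genes were not compared, so that the effect of shared reads on the split is not known.

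*hsp90aa1* and the variable *hspa8* gene varied together. Over the 13 libraries Pearson's r of their log2 CPM was 0.96 and Spearman's rho 0.97, each with a permutation p of 1e-05, the smallest that 100000 permutations can give, and an adjusted p of 0.00055 over 55 pairs. The r was 0.94 without the 2 farthest libraries, 0.96 within genotypes and 0.92 within the middle run of title numbers, explained below. In that run *hsp90aa1* was 205.6 CPM in *tert*+/- 2 and between 395.5 and 532.8 CPM in the others. Every r of *hsp90aa1* within that run thus leans on *tert*+/- 2 and was not computed without it. *hspe1* varied with *hsp90aa1* (r of 0.80 and rho of 0.76, permutation p of 0.00096 and 0.00356, adjusted p of 0.0264 and 0.0653). It also varied with *hsp90aa1.1* (r of 0.77 and rho of 0.81, permutation p of 0.00205 and 0.00135, adjusted p of 0.0376 and 0.0371). These r were 0.81 and 0.66 without the farthest 2 libraries, 0.82 and 0.79 within genotypes, and 0.72 and 0.62 within the middle run of title numbers. No other of the 55 pairs had an adjusted Pearson p under 0.05. All values of a library share its depth and its scaling factor. The r of *hsf1* with *hsp90aa1* was −0.34 and with *hspe1* −0.69 (rho of −0.66, permutation p of 0.00838 and 0.0156, adjusted p of 0.0861 and 0.0956). *dnajb1a* and the abundant *hspa8* gene had an r of −0.69 and a rho of −0.58 (permutation p of 0.00605 and 0.0404, adjusted p of 0.0832 and 0.222). That r was −0.42 without the 2 farthest libraries, −0.64 within genotypes and −0.89 within the middle run. The middle-run value leans on *tert*+/- 2, which had the lowest *dnajb1a* and the highest abundant *hspa8* of the 13 libraries. It was not computed without that library.

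**Figure D4:**
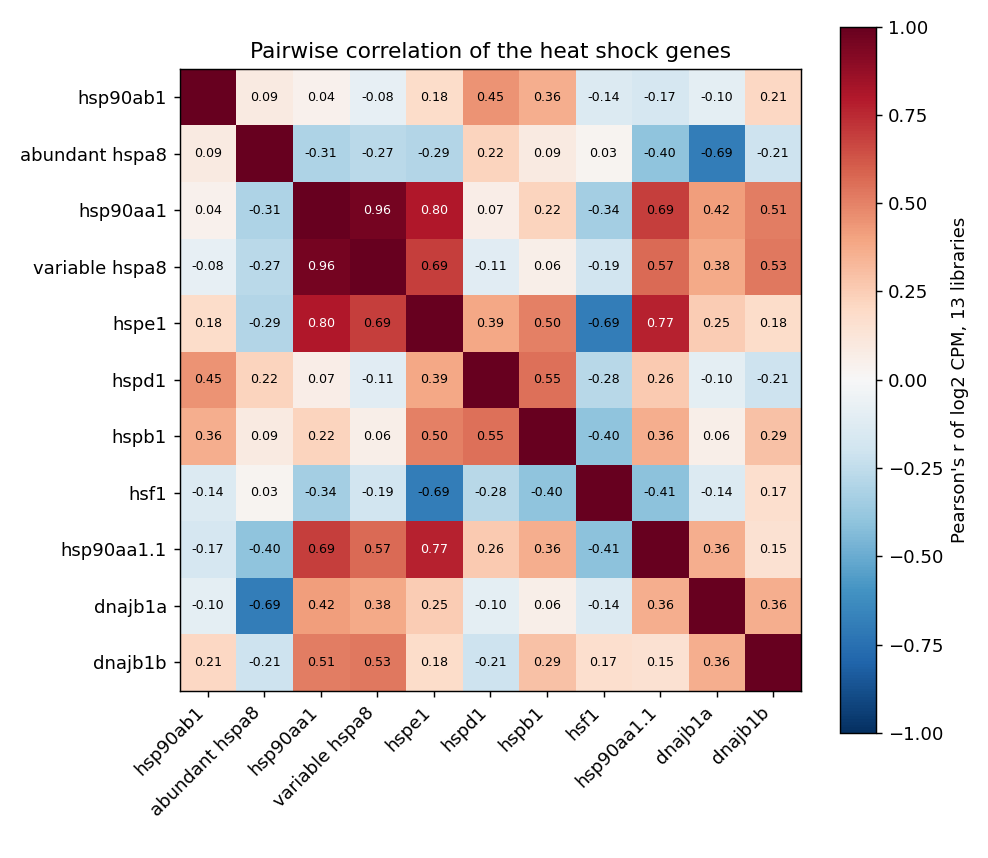
Pearson's r of log2 CPM for each pair of the 11 heat shock genes over 13 libraries. The strongest positive values join *hsp90aa1* with the variable *hspa8* gene (0.96) and with *hspe1* (0.80), and *hsf1* is negative with most others.

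The title of each library holds a number whose meaning the labels do not give. These numbers were split here into 3 runs of 2, 7 and 4 libraries. The middle run holds wild type 2, 3 and 4, *tert*+/- 2 and 3, and *tert*-/- 1 and 2. The number of *tert*+/- 4 lies midway between the last of the middle run and the next number after its own. Its place in the last run was thus a choice that the numbers do not decide. The run medians, the fits with a term for the runs and all middle-run values rest on that choice. They were not computed with *tert*+/- 4 in the middle run. *hsp90aa1* followed the title numbers, a pattern noticed after the values were seen. It was between 395 and 533 CPM in the last 6 libraries of the middle run. These are wild type 2, 3 and 4, *tert*-/- 1 and 2, and *tert*+/- 3. As *tert*+/- 3 is the only *tert*+/- library among them, title order and genotype are not balanced. *hsp90aa1* was 356 CPM in *tert*+/- 4, the next in order, and between 173 and 290 CPM in the 3 libraries before and the 3 after. The cold-inducible RNA-binding protein genes *cirbpa* and *cirbpb*, whose mammalian counterpart rises when temperature falls, went the opposite way. *cirbpa* ranged from 337 to 575 CPM and *cirbpb* from 1112 to 1635. Their log2 fold changes in *tert*+/- against wild type were 0.24 ± 0.15 and 0.19 ± 0.12 (edgeR adjusted p of 0.7 for both). *hsp90aa1* and *cirbpa* had an r of −0.85 and a rho of −0.85 (permutation p of 0.00062 and 0.00051, adjusted p of 0.0455 and 0.0561 over 110 relations of heat shock genes with marker measures). The r was −0.83 without the 2 farthest libraries, −0.85 within genotypes and −0.87 within the middle run of title numbers. For *cirbpb* the r was −0.82 and the rho −0.76 (permutation p of 0.00108 and 0.00378, adjusted p of 0.0455 and 0.104), with −0.77, −0.82 and −0.75 in the same subsets. The variable *hspa8* gene and *cirbpa* had an r of −0.78 (permutation p of 0.00238, adjusted p of 0.0654). *dnajb1b* and *cirbpa* had an r of −0.54 and a rho of −0.74 (permutation p of 0.0523 and 0.00479, adjusted p of 0.449 and 0.105). That r was −0.92 without the 2 farthest libraries, −0.36 within genotypes and −0.93 within the middle run. With *cirbpa*, the r was positive for the abundant *hspa8* gene (0.35) and *hsf1* (0.02). Tissue collection conditions were not used here, and their part was not tested.

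With a term for these runs in the fit, the log2 fold change of *hsp90aa1* in *tert*+/- against wild type was −0.04 and that of the variable *hspa8* gene 0.06. Within the middle run alone they were −0.49 and −0.47. In that run *tert*+/- is only libraries 2 and 3, with *hsp90aa1* at 205.6 and 435.4 CPM. In *tert*-/- against *tert*+/-, the log2 fold change of *hsp90aa1* was 0.42 in the main fit. It was 0.10 with the run term and 0.63 within the middle run. None of these passed an unadjusted p of 0.05. *dnajb1a* was −0.68 with that term (edgeR unadjusted p of 0.0023) and −0.79 within the middle run (unadjusted p of 0.014) in *tert*+/-. The values in *tert*-/- were −0.47 (unadjusted p of 0.0376) and −0.30 (unadjusted p of 0.241). The middle-run value of *dnajb1a* in *tert*+/- leans on *tert*+/- 2, at 3.22 CPM against 4.70 in *tert*+/- 3. It was not computed without that library. *dnajb1b* also differed between the runs, with medians of 2.08, 2.97 and 1.75 CPM in title order. In *tert*+/- against wild type it was −0.60 with that term (edgeR unadjusted p of 0.0135). Within the middle run it was −0.71 (unadjusted p of 0.0326). In *tert*-/- against *tert*+/- the values were 0.77 (unadjusted p of 0.00701) and 0.88 (unadjusted p of 0.0177).

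**Figure D5:**
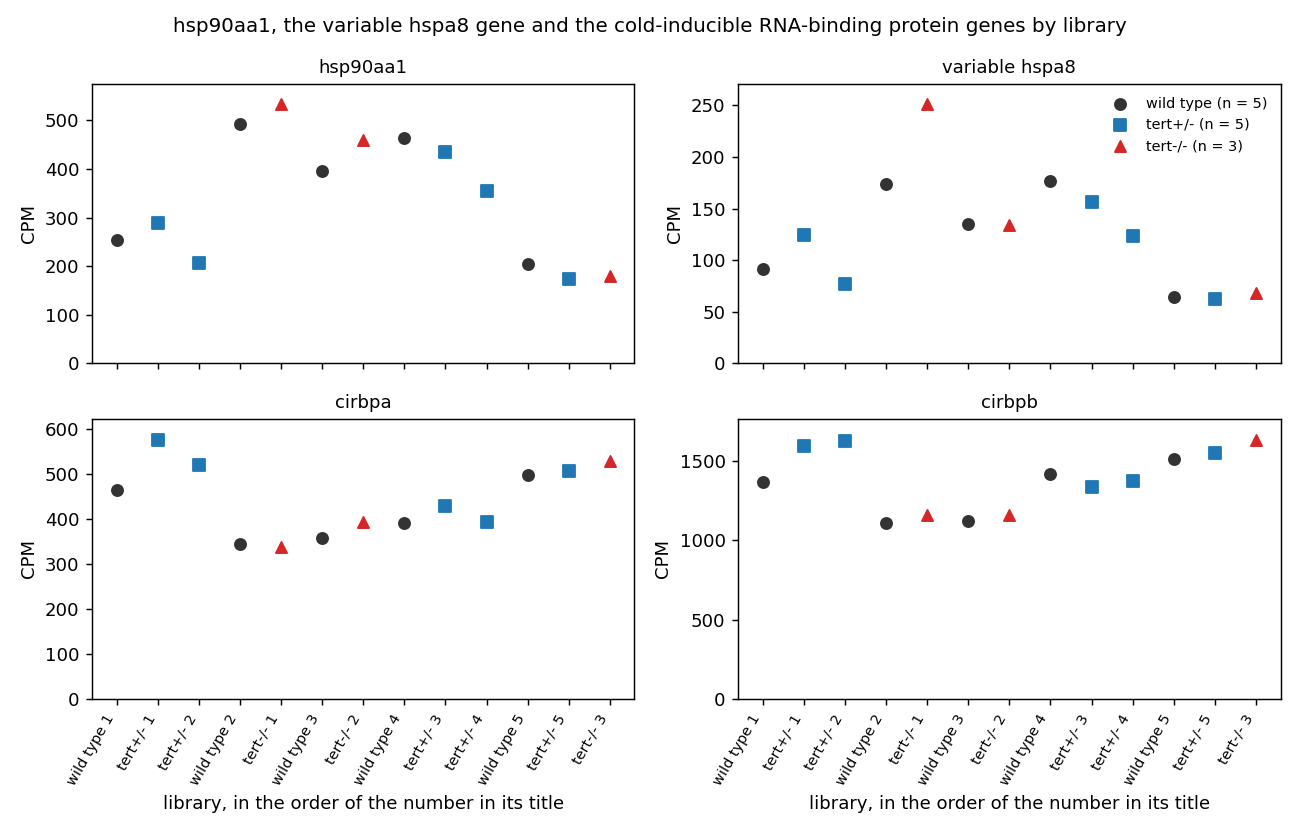
CPM of *hsp90aa1*, the variable *hspa8* gene, *cirbpa* and *cirbpb* in each library, ordered by the number in the library title, with genotype by colour and shape. *hsp90aa1* is between 395 and 533 CPM from wild type 2 to *tert*+/- 3 in that order, where *tert*+/- 3 is the only *tert*+/- library and *cirbpa* is low.

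Other chaperone genes were then read against *hsp90aa1*, over 80 genes of 9 related lists. This comparison was chosen after the variation of *hsp90aa1* had been seen. The adjusted permutation p of Pearson's r was under 0.05 for 16 of the 80, and 15 of these were positive. An r over 0.6 was found for 18 of the 80 (22.5%), beside 4.8% of 20053 tested genes, and one over 0.8 for 7 (8.75%), beside 0.703%. The median r over all tested genes was −0.02. HSP90 co-chaperones gave 6 of the 16, and their median r was 0.52 over 18 genes. Among them were *fkbp4*, an HSP90-bound immunophilin of steroid receptor complexes, with an r of 0.96 and a rho of 0.91, and *stip1*, the adaptor that passes clients from HSP70 to HSP90, with 0.94 and 0.92. *cdc37*, which brings kinases to HSP90, had an r of 0.83 and a rho of 0.81. The permutation p of the r of these 3 genes was 1e-05, 3e-05 and 0.00117, and of the rho 7e-05, 4e-05 and 0.00114. The adjusted p of the r was 0.0008, 0.0008 and 0.0117, and that of the rho 0.00187, 0.00187 and 0.013. Without the 2 farthest libraries the r was 0.95, 0.92 and 0.74, within genotypes 0.96, 0.94 and 0.82, and within the middle run of title numbers 0.95, 0.90 and 0.61.

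Other co-chaperones had negative values that did not pass adjustment. A *ptges3* gene (ENSDARG00000089626) had an r of −0.66 and a rho of −0.62 (permutation p of 0.0109 and 0.0265, adjusted p of 0.0513 and 0.0937), and its r was −0.39 without the 2 farthest libraries, −0.66 within genotypes and −0.05 within the middle run. For *fkbp5* the r was −0.55 and the rho −0.69 (permutation p of 0.0549 and 0.011, adjusted p of 0.157 and 0.0518), with an r of −0.50, −0.51 and −0.75 in the same subsets. *unc45b*, a myosin chaperone, had an r of −0.46 and a rho of −0.40 (permutation p of 0.117 and 0.184, adjusted p of 0.268 and 0.387), with −0.51, −0.43 and −0.67.

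HSP70 and HSP110 genes had a median r of 0.46 with *hsp90aa1* over 12 genes, 3 of them past the threshold. *hsp70.3*, a stress-inducible HSP70, had an r of 0.89 and a rho of 0.92 but a level of only 0.122 to 1.15 CPM. *hspa4l*, a nucleotide exchange factor of the HSP110 family, had an r of 0.86 and a rho of 0.85 at between 156 and 230 CPM. Mitochondrial chaperones and proteases gave 4 of 11 genes past the threshold, among them *hspa9*, the mitochondrial HSP70, with an r of 0.86 and a rho of 0.82. The permutation p of *hsp70.3*, *hspa4l* and *hspa9* was 2e-05, 0.00034 and 0.00034 for r and 6e-05, 0.00054 and 0.00105 for rho. Adjusted, it was 0.0008, 0.00544 and 0.00544 for r and 0.00187, 0.00864 and 0.013 for rho. Without the 2 farthest libraries their r was 0.86, 0.88 and 0.77, within genotypes 0.91, 0.88 and 0.85, and within the middle run of title numbers 0.81, 0.94 and 0.89. By contrast, the median r was −0.02 over 12 HSP40 genes, 0.01 over 7 BAG genes and −0.15 over 8 subunits of the cytosolic chaperonin CCT. The HSP40 genes ranged from an r of −0.65 (*dnajc7*) to 0.51 (*dnaja1*). For *dnaja1* the rho was 0.70, and the adjusted permutation p was 0.209 for r and 0.0478 for rho. That list does not hold *dnajb1a* and *dnajb1b*, whose r with *hsp90aa1* was 0.42 and 0.51. The 1 negative gene of the 16 was the CCT subunit *cct3* (r of −0.80, rho of −0.73, permutation p of 0.00058 and 0.00556, adjusted p of 0.00697 and 0.0371). Its r was −0.69 without the 2 farthest libraries, −0.84 within genotypes and −0.53 within the middle run of title numbers.

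None of the related lists held a gene called by edgeR in any of the 3 comparisons. In *tert*-/- against wild type, 0 of the 80 had an unadjusted p under 0.05, beside the 2.14% of all tested genes. In *tert*+/- against wild type 7 did, beside 7.74% of all tested genes, of which 6 were higher and 1 lower. Against *tert*+/-, 4 of the 80 did in *tert*-/-, beside 4.62%, of which 3 were higher and 1 lower. The HSP90 co-chaperone *ptges3* (ENSDARG00000037284), the p23 protein of the late HSP90 complex, was at 210 ± 29.3 CPM in *tert*+/- and 173 ± 12.1 in wild type (log2 fold change of 0.28 ± 0.11, edgeR adjusted p of 0.602). *hspb2*, a small heat shock protein of muscle, was at 1.55 ± 0.808 and 0.773 ± 0.165 CPM (0.99 ± 0.39, edgeR adjusted p of 0.602), and its highest libraries, *tert*+/- 3 and 4, had 2.33 and 2.16 CPM. The muscle marker list also differed between these groups. In *tert*+/-, 15 of 18 genes were higher than in wild type, with a median log2 fold change of 0.95. An unadjusted p under 0.05 was found for 11, and edgeR called 0. The list was highest in *tert*+/- 3, at 1.30 log2 units above its mean over libraries. In *tert*+/- 4 it was at 0.13, below *tert*+/- 5 (0.43) and *tert*+/- 1 (0.28). Its relation with *hspb2* was not computed, and its part was not tested. *grpel1*, the nucleotide exchange factor of mitochondrial HSP70, was at 40.2 ± 2.25 and 36.0 ± 2.17 CPM (0.16 ± 0.07, edgeR adjusted p of 0.604). *hsbp1*, which binds HSF1 and dampens it, was at 110 ± 15.2 and 90.8 ± 8.33 CPM (0.28 ± 0.12, edgeR adjusted p of 0.623). The gene that was lower was *bag6* (ENSDARG00000077531), a chaperone of membrane proteins, at 47.0 ± 5.03 and 53.8 ± 3.28 CPM (−0.19 ± 0.08, edgeR adjusted p of 0.604). In *tert*+/- against wild type, the log2 fold change was 0.05 ± 0.08 for the other gene named *ptges3* and −0.04 ± 0.08 for the other named *bag6*.

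The remaining 4 lists had no gene with an unadjusted p under 0.05 in either comparison with wild type, and the gene with the lowest p over the 3 comparisons is given for each. The J-domain gene *dnaja1* was at 28.9 ± 9.26 CPM in *tert*+/- and 39.1 ± 5.12 in wild type (log2 fold change of −0.44 ± 0.22, edgeR adjusted p of 0.647). *serpinh1* (ENSDARG00000019949), the collagen chaperone HSP47, was at 2.60 ± 1.14 in *tert*+/- and 5.81 ± 3.54 CPM in *tert*-/- (1.17 ± 0.51 in *tert*-/- against *tert*+/-, edgeR unadjusted p of 0.041 and adjusted p of 0.975). *cct2* (ENSDARG00000087206) was at 13.3 ± 2.07 and 16.1 ± 0.581 CPM in the same genotypes (0.27 ± 0.12, edgeR unadjusted p of 0.0482 and adjusted p of 0.975). *hsp70.3* was at 0.330 ± 0.158 and 0.718 ± 0.438 CPM (1.13 ± 0.54, edgeR unadjusted p of 0.057 and adjusted p of 0.975). The libraries of the genotypes overlapped for each of these genes. In *tert*-/- against *tert*+/-, the log2 fold change was 0.04 ± 0.08 for the other gene named *cct2* and 0.36 ± 0.25 for the other named *serpinh1*.

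The co-chaperone *fkbp5*, a known glucocorticoid-induced inhibitor of steroid receptor maturation, was singled out after its values were seen. Wild-type libraries 1 to 5 held 107, 74, 139, 365 and 415 CPM. The *tert*+/- libraries 1 to 5 held 387, 883, 362, 650 and 402 CPM, and the *tert*-/- libraries 1 to 3 held 98.9, 246 and 518. The genotypes overlapped, and the log2 fold change of *tert*+/- against wild type was 1.29 ± 0.53 (edgeR adjusted p of 0.61). The highest value was in *tert*+/- 2, the library with the lowest *dnajb1a*. *dnajb1b* and *fkbp5* had an r of −0.77 and a rho of −0.80 (permutation p of 0.00124 and 0.00148, adjusted p of 0.0455 and 0.0814 over the 110 relations), with an r of −0.77 without the 2 farthest libraries, −0.64 within genotypes and −0.91 within the middle run of title numbers. *dnajb1a* and *fkbp5* had an r of −0.59 and a rho of −0.47 (permutation p of 0.0335 and 0.106). That relation was −0.29 within genotypes and did not pass adjustment. The adjustment over the 110 relations does not cover the choice of *fkbp5* from the related lists. Neither relation with *fkbp5* is thus taken to hold. The part of *fkbp5* in the *dnajb1a* difference was not tested.

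The genes with the most similar pattern were sought among 19899 tested genes, as a description over the 13 libraries. For the variable *hspa8* gene they were *cds2*, *smarca2* and *tmcc1*, with Pearson's r of 0.97, 0.96 and 0.96 and the highest 3 places by Spearman's rho as well. For *dnajb1a*, the gene with the lowest p, they were *suox*, *si:dkey-166k12.1* and *ercc4*, with an r of 0.87, 0.85 and 0.85. These genes share library depth and scaling with the gene they resemble.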

How the data were processed

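Brain RNA of 13 fish was sequenced from TruSeq RNA v2 libraries. According to the submitters' processing notes, the authors used bcl2fastq 1.8.4, STAR 2.4.1d, the GRCz10 build and featureCounts 1.4.6-p4. The annotation release, strand setting and treatment of reads with several positions are not given in the sources used here. The deposited counts are raw reads per Ensembl gene. The deposited RPKM values scale those counts to gene length and a library total, but the totals were repeated down the rows: 8.50% of 224478 values fitted within 0.2% with a library's own total and 100% with the repeated totals. The RPKM served only to recover gene lengths, and levels per kilobase were computed from counts.

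Of the gene IDs, 26269 (81.8%) had a symbol. The test was the 2-sided quasi-likelihood F test of edgeR 4.0.16 in R 4.3.3, with TMM factors, a minimum count of 10 in filterByExpr, all 13 libraries in 1 fit, and Benjamini-Hochberg adjustment over 20064 genes, called under 0.05. Standard errors came from the F statistic and intervals are normal. Alternatives were DESeq2 1.42.0, limma 3.58.1 (voom), RLE factors, library totals, no count filter, the 2 groups alone, a term for the 3 runs of numbers in the library titles, the middle run alone, exact names only, and leaving out each library. Correlations used log2 CPM (prior count 2) and 100000 permutations. The steps were tested on simulated data, with 100 genes changed 2-fold and 100 changed 4-fold in each comparison. The other genes had no difference between genotypes, and no difference between title runs was drawn. Of 2-fold changes, 48% were recovered in *tert*-/- against wild type, 56% in *tert*+/- against wild type and 48% in *tert*-/- against *tert*+/-. Of 4-fold changes, 83%, 90% and 84% were recovered. These shares depend on the number of changed genes, which is not known for the real data, so they are not its power. An absent call thus does not exclude a change of either size. *tert*, at 3.15-fold in *tert*-/- against wild type, had an edgeR adjusted p of 0.573. The members, the 9 related lists and the 8 marker lists were chosen with earlier results of these data known. All members are named, as are, per related list, called genes or else the gene with the lowest p, and the 3 genes most correlated with the most variable member and with the member of lowest p. The p-values of the fits measure the spread between fish. Permutation p-values take the libraries as exchangeable. That was not tested, and *hsp90aa1* followed the title numbers. No sequences were printed.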

Additional observations from a re-analysis of the deposited data

Results flagged for a closer look

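Dixon's test examined the 11 heat shock genes in wild type and in *tert*+/-, 22 groups of 5 libraries, of which chance flags about 1 in 20, and *tert*-/- with 3 libraries was not examined. *dnajb1b* was 0.837 CPM in *tert*+/- 4, where the other 4 libraries lay between 1.66 and 1.97, and the gap took 0.728 of the range against a critical value of 0.71. It rested on 19 reads. The abundant *hspa8* gene (ENSDARG00000068992) was 1689 CPM in *tert*+/- 2, where the others lay between 1403 and 1464, with a gap of 0.788 of the range. The same library had the lowest *dnajb1a* (3.22 CPM). The cause of neither value was tested.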

How the results depend on the processing

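No heat shock gene was called in any comparison under any alternative that was run. No paired analysis was possible because the labels give no replicate numbers. With DESeq2, the count of all genes called went from 0 to 16 (*tert*-/- against wild type), 28 (*tert*+/- against wild type) and 18 (*tert*-/- against *tert*+/-), and the cause was not tested. With 1 library left out, edgeR called between 0 and 1, 0 and 5, and 0 and 1 genes in these comparisons, and 0 and 1 for the slope. Calls appeared without *tert*+/- 4 (1 gene in *tert*-/- against wild type and 1 for the slope) and without *tert*+/- 3 (5 in *tert*+/- against wild type and 1 in *tert*-/- against *tert*+/-). Heat shock genes with an unadjusted p under 0.05 in *tert*-/- against wild type went from 1 to 0 within the middle run of title numbers and ranged from 0 to 1 with a library left out (0 without *tert*-/- 2 or 3). In *tert*-/- against *tert*+/- they ranged from 1 to 2, and the gene changed: *dnajb1b* lost its unadjusted p without *tert*-/- 1 (log2 fold change of 0.62, edgeR unadjusted p of 0.0871), while *hspb1* gained it there (0.33, 0.0481) and without *tert*-/- 3 (0.36, 0.0291). The number of heat shock genes higher in *tert*+/- than in wild type went from 1 to 4 with DESeq2, RLE factors, no count filter or the 2 groups alone, and to 3 within the middle run of title numbers or with a term for the title runs. With a library left out it lay between 1 and 4, and for *tert*-/- against wild type between 6 and 10.

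Signs turned as follows. In *tert*+/- against wild type, with DESeq2, RLE factors, no count filter and the 2 groups alone, the log2 fold change of *hspd1* was 0.01, 0.01, 0.00 and 0.02, that of *hspe1* 0.01, 0.02, 0.00 and 0.02, and that of *hsf1* 0.01, 0.01, 0.00 and 0.01. Within the middle run, *hspb1* was 0.07 and *hspd1* 0.01. With a term for the title runs, *hspe1* was 0.04 and the variable *hspa8* gene 0.06. With library totals only, the abundant *hspa8* gene was 0.02 in *tert*-/- against *tert*+/-. With a library left out, the following ranges crossed 0. In *tert*-/- against wild type they were −0.02 to 0.30 for *hspb1*, −0.13 to 0.38 for *dnajb1b*, −0.02 to 0.27 for *hspe1*, −0.16 to 0.46 for *hsp90aa1*, −0.37 to 0.25 for *hsp90aa1.1*, −0.03 to 0.21 for *hsf1* and −0.32 to 0.59 for the variable *hspa8* gene. In *tert*+/- against wild type they were −0.04 to 0.03 for *hspd1*, −0.08 to 0.06 for *hspe1*, −0.05 to 0.01 for *hsp90ab1* and −0.07 to 0.08 for *hsf1*. In *tert*-/- against *tert*+/- they were −0.00 to 0.31 for *dnajb1a*, −0.03 to 0.26 for *hspe1*, −0.16 to 0.47 for *hsp90aa1.1*, −0.03 to 0.21 for *hsf1*, −0.09 to 0.82 for the variable and −0.05 to 0.02 for the abundant *hspa8* gene. Low counts limit *dnajb1b* and *hsp70.3*.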
